A study of Mus musculus with 3 samples.

Results

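The genes that build cholesterol and fatty acids were examined in RM1, a mouse prostate cancer cell line. The set was chosen by name and holds 33 genes of the cholesterol and lipogenic pathways and of their shared control. Noncontrol probes named for 1 of these genes numbered 52 of 39429, and 49 of the 52 passed the filter on dim signal, together covering all 33 genes among 16826 genes tested. RM1-MXRA7 cells carried transfected MXRA7, and their controls, RM1-VE, carried the vehicle vector. Both lines were kept in DMEM with 10% fetal serum and 400 µg/mL of G418, the drug that selects transfected cells, and RNA was taken in exponential growth on day 2. RNA of RM1-MXRA7 in Cy3 and of RM1-VE in Cy5 was hybridised together on each of 3 arrays of 1 slide, so each array gave 1 log2 ratio of RM1-MXRA7 over RM1-VE per probe (n = 3). The labels do not say whether the 3 pairs came from separate transfections, clones or cultures, so p-values speak only for these pairs. The p-values draw on the spread of all genes together with each gene's own spread between the pairs. No dyes were swapped, so the lines and the dyes cannot be told apart.

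Cholesterol is made from acetyl-CoA through mevalonate, isoprenoid diphosphates, squalene and lanosterol, and fatty acids are made from the same acetyl-CoA through malonyl-CoA. Both routes are driven by the sterol regulatory element binding proteins (SREBPs), transcription factors that SCAP carries out of the endoplasmic reticulum when sterols are low and that INSIG proteins hold back when sterols are high. Prostate cancer cells are known for high rates of lipid synthesis.

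Differences between the lines were small in this pathway. A gene is described as having risen or fallen only where limma called it in the same direction at an adjusted p under 0.05 (Benjamini-Hochberg over 16826 genes) both with loess normalisation alone and after the trend of ratios over the array surface was removed. By that rule 5 of the 33 genes fell in RM1-MXRA7 and 1 rose. The falls were of Stard4, a sterol carrier, Elovl5, an elongase of polyunsaturated fatty acids, Insig2, Fasn, the fatty acid synthase, and Acly, the enzyme that makes cytosolic acetyl-CoA from citrate, at log2 ratios between -0.57 and -0.24. The rise was of Sqle, squalene epoxidase, at 0.30. Among all genes tested, 10.9% were called lower and 9.58% higher by the same rule, so the members' shares of 15.2% and 3.03% are given as counts and not as a property of the pathway. None of the 33 differed 2-fold in either fit.

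A larger difference lay between the replicate pairs and was shared by both lines. The levels of the 16 enzymes from acetoacetyl-CoA to cholesterol were all lowest on array 3 in both lines. They were highest on array 1 for all 16 in RM1-VE and for 14 in RM1-MXRA7. Their median level on array 1 lay 1.46 above that on array 3 on the log2 scale, as the mean of both lines, against 0.0007 for all genes. Those values are described after the ratios.

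The array data had the following properties. Of the 39429 distinct probes, between 21787 and 24185 were well above background in a channel. The ratios ran along the array surface. A smooth surface, fitted together with log2 intensity, took 34.4%, 33.6% and 25.5% of the variance of the log ratios on arrays 1, 2 and 3. These shares include the part of intensity and cover only spots well above background in either channel on every array. Loess alone called 23.9% of genes higher and 23.5% lower, against 14.9% and 15.5% with the surface removed. Mxra7, the transfected gene, had log2 ratios of 0.39, 0.39 and 0.15 with loess (mean 0.31, limma adjusted p = 0.00524), but of -0.02 on average with the surface removed (limma adjusted p = 0.815). Directions between the lines therefore rest on the dyes stated in the labels. Of prostate epithelial markers, Krt8 and Krt18 were well above background on all arrays, while Hoxb13, Pbsn, Epcam and Cdh1 were not, in either line. All 4 mesenchymal markers (Vim, Cdh2, Col1a1 and Fn1) were, as were 4 of 5 leukocyte genes (not the pan-leukocyte marker Ptprc) and 3 of 4 endothelial genes. Of other lipid-making cell types, 0 of 4 hepatocyte markers were, and of 5 adipocyte markers only Fabp4 was, in RM1-MXRA7 alone. Between the lines, Col1a1 (-1.82 with loess, -1.75 with the surface removed) and Cdh5 (-0.87 and -0.72) fell in both fits, and Fn1 (0.73 and 0.87) rose. Fabp4 was called higher in both (0.48 and 0.30), but its probe was dim, at a mean log2 intensity of 6.64. It passed the filter only through RM1-MXRA7, the line where it was higher. The other 10 of 14 measured markers did not pass in both fits. The part of the markers in the ratios below was not tested.

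**Figure D1:**
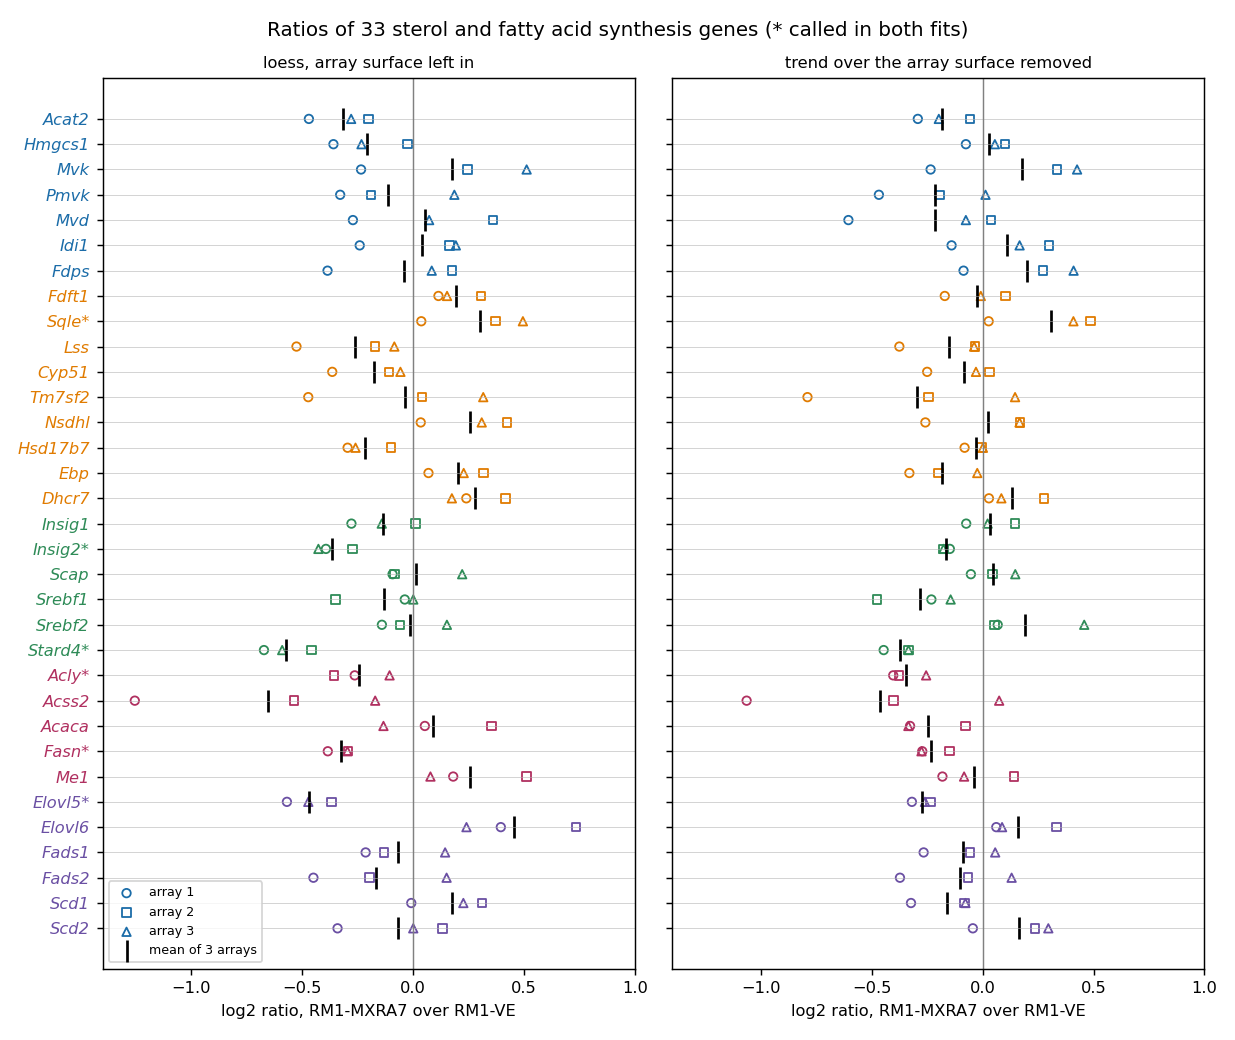
Log2 ratio of RM1-MXRA7 over RM1-VE (x axis) of each of the 33 genes (y axis, coloured by role), with loess alone on the left and the surface trend removed on the right. Symbols are the 3 arrays and the bar their mean. Stars mark the 6 genes called in both fits, and the circles of array 1 lie leftmost for 26 genes on the left and for 28 on the right.

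The mevalonate steps, which carry acetyl-CoA to farnesyl diphosphate, held 0 genes that rose or fell in both fits among 7. Their median log2 ratio was -0.04 with loess and 0.03 with the surface removed, against -0.01 and 0.004 for all genes. Acat2, the cytosolic thiolase that joins acetyl-CoA units, had ratios of -0.47, -0.20 and -0.28 on arrays 1, 2 and 3. It was below 0 on every array and was called lower with loess (mean -0.32 ± 0.14, SD, n = 3; limma adjusted p = 0.00451), whereas the mean of -0.18 with the surface removed did not pass (limma adjusted p = 0.0611). Hmgcs1, which makes hydroxymethylglutaryl-CoA, was called lower with loess alone at -0.21 (limma adjusted p = 0.0497) and lay at 0.03 with the surface removed. The kinases and decarboxylase that turn mevalonate into isopentenyl diphosphate did not pass in either fit. Mvk lay at -0.23, 0.34 and 0.43 on the 3 arrays with the surface removed, so array 1 stood below 0 and the others above. Pmvk lay at -0.47, -0.19 and 0.01, and Mvd at -0.60, 0.04 and -0.08. Idi1, the isopentenyl diphosphate isomerase, lay at -0.14, 0.30 and 0.17, and Fdps, the farnesyl diphosphate synthase, at -0.09, 0.27 and 0.41. Array 1 had the lowest ratio of the 3 for all 7 genes, and Mvk, Idi1 and Fdps were called higher with the surface removed once array 1 was left out.

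From squalene to cholesterol, 1 of 9 genes rose and 0 fell in both fits, beside 9.58% and 10.9% of all genes. Sqle, which puts oxygen on squalene and is regarded as a control point of the pathway, had loess ratios of 0.04, 0.37 and 0.49 on arrays 1, 2 and 3. Arrays 2 and 3 were well above 0 and array 1 was near it. The mean was 0.30 ± 0.24 (SD, n = 3; limma adjusted p = 0.0120), or 1.23-fold, and 0.31 ± 0.25 with the surface removed (limma adjusted p = 0.0313). Agilent's processed signals gave 0.25, which did not pass (limma adjusted p = 0.136), and the call was lost in loess values without array 2 or without array 3. The only probe of Sqle covers chromosome 15, 59162688 to 59162747, in the mm9 coordinates of the array files, which name no exon or UTR. Fdft1, the squalene synthase, lay at 0.19 with loess and -0.03 with the surface removed and passed in neither. Lss, which closes squalene epoxide to lanosterol, was called lower with loess at -0.26 and did not pass at -0.15 with the surface removed. Cyp51, the lanosterol demethylase, lay at -0.18 and -0.08. Among the enzymes that trim lanosterol, Nsdhl (0.26), Ebp (0.20) and Dhcr7 (0.28), the last reductase, were called higher and Hsd17b7 (-0.22) lower with loess alone. With the surface removed these 4 lay at 0.03, -0.18, 0.13 and -0.03, and none passed. The other kept probes of Hsd17b7 lay on the other side of 0, at 0.35 and 0.16 with loess and at 0.12 and 0.29 with the surface removed. Tested over all kept probes, the first was higher with loess (limma adjusted p = 0.00235). The second was higher with the surface removed (limma adjusted p = 0.00706), and neither passed in both fits. Tm7sf2, a sterol reductase, spread from -0.79 on array 1 to 0.15 on array 3 with the surface removed. The group's median moved from 0.19 to -0.03 between the fits.

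Among the genes that control SREBP and carry sterol, 2 of 6 fell and 0 rose in both fits, beside 10.9% and 9.58% of all genes. Stard4, which moves sterol between membranes, had loess ratios of -0.67, -0.46 and -0.59 and, with the surface removed, of -0.45, -0.33 and -0.33. It was lower on all 3 arrays in both fits. The mean was -0.57 ± 0.11 (SD, n = 3; limma adjusted p = 3.7e-05), a 1.49-fold lower level, and -0.37 ± 0.06 with the surface removed (limma adjusted p = 0.00230). A dimmer probe of Stard4 lay at -0.34, -0.08 and -0.17 with loess and at -0.06 on average with the surface removed, so it was less far below 0 than the brighter probe. Insig2, an INSIG form whose gene, unlike Insig1, is not known as an SREBP target, had loess ratios of -0.39, -0.27 and -0.43. It was below 0 on all arrays. The mean was -0.36 ± 0.08 (SD, n = 3; limma adjusted p = 0.00130), and -0.17 ± 0.02 with the surface removed (limma adjusted p = 0.0479). Its dimmer probe lay at -0.07 with loess and at 0.05 with the surface removed, and Agilent's processed signals gave -0.18 for the brighter one, which did not pass (limma adjusted p = 0.0715). Insig1, the form that SREBP itself induces, lay at -0.14 with loess and 0.03 with the surface removed. Scap lay at 0.01 and 0.05. Srebf1, which encodes the SREBP form tied to fatty acid synthesis, was called lower with the surface removed alone, with ratios of -0.23, -0.48 and -0.14 (mean -0.28, limma adjusted p = 0.0208) against -0.13 with loess. Srebf2, which encodes the form tied to cholesterol synthesis, lay at -0.02 and 0.19 and passed in neither. Its dimmer probe lay at -0.22 with loess (limma adjusted p = 0.0298 over all kept probes) and at -0.07 with the surface removed.

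Of the 5 genes of fatty acid synthesis and its precursors, 2 fell and 0 rose in both fits, beside 10.9% and 9.58% of all genes. With the surface removed all 5 means lay below 0 with a median of -0.25. Acly had loess ratios of -0.26, -0.36 and -0.11 and, with the surface removed, of -0.40, -0.38 and -0.25. Every array was below 0. The mean was -0.24 ± 0.13 (SD, n = 3; limma adjusted p = 0.0200), and -0.34 ± 0.08 with the surface removed (limma adjusted p = 0.00360), a 1.27-fold lower level. A dim probe of Acly lay at 0.05 and -0.14 in the fits, so the probes had opposite signs with loess. Fasn, which builds palmitate from malonyl-CoA, had loess ratios of -0.38, -0.29 and -0.30. The arrays lay close together. The mean was -0.32 ± 0.05 (SD, n = 3; limma adjusted p = 0.00262), a 1.25-fold lower level, and -0.23 ± 0.07 with the surface removed (limma adjusted p = 0.0183). The probes used cover chromosome 11, 100337674 to 100337733, for Acly and 120667666 to 120667725 for Fasn (mm9). Acaca, the acetyl-CoA carboxylase that makes malonyl-CoA, was called lower with the surface removed alone, at -0.25 against 0.09 with loess. Acss2, which makes acetyl-CoA from acetate, had the widest spread, with ratios of -1.25, -0.54 and -0.17 with loess. It was called lower there (mean -0.65 ± 0.55, SD, n = 3; limma adjusted p = 0.00119) but not with the surface removed (mean -0.46, limma adjusted p = 0.0722), where array 3 lay at 0.07. Me1, the malic enzyme that supplies NADPH, lay at 0.26, called higher, with loess and at -0.04 with the surface removed. Both of its other kept probes were below 0 with loess, at -0.21 and -0.17, and lay at 0.02 and 0.01 with the surface removed.

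Among the elongases and desaturases, 1 of 6 fell and 0 rose in both fits, beside 10.9% and 9.58% of all genes. Elovl5 had loess ratios of -0.57, -0.37 and -0.47 and, with the surface removed, of -0.32, -0.23 and -0.26. It was lower on all 3 arrays in both fits. The mean was -0.47 ± 0.10 (SD, n = 3; limma adjusted p = 2.0e-04), a 1.39-fold lower level, and -0.27 ± 0.04 with the surface removed (limma adjusted p = 0.00813). Its only probe covers chromosome 9, 77832205 to 77832264 (mm9). Elovl6, which lengthens palmitate, had the opposite sign, with loess ratios of 0.40, 0.73 and 0.24, and was called higher there (mean 0.46, limma adjusted p = 8.8e-04) but not with the surface removed (mean 0.16, limma adjusted p = 0.108). The desaturases of polyunsaturated fatty acids, Fads1 and Fads2, lay at -0.09 and -0.10 with the surface removed and passed in neither fit. A dimmer probe of Fads2 lay at -0.19 with the surface removed (limma adjusted p = 0.0301 over all kept probes). With loess that probe lay at -0.09 and did not pass. The stearoyl-CoA desaturases Scd1 and Scd2, which make oleate, lay at -0.16 and 0.16 with the surface removed, and at 0.18 and -0.07 with loess, so each changed sign between the fits.

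With loess alone, 6 members were called higher (18.2%) and 10 lower (30.3%), against 23.9% and 23.5% of all genes. With the surface removed 1 was called higher (3.03%) and 7 lower (21.2%), against 14.9% and 15.5% of all genes. The mean had opposite signs in the fits for 11 of the 33. Agilent's processed signals called 0 members higher and 4 lower (12.1%), namely Stard4, Acly, Fasn and Elovl5, against 11.5% and 12.9% of all genes. In both fits Stard4 was called lower whichever array was left out, while Elovl5 lost the call without array 2, Fasn without array 2 or 3, and Acly without array 1 or 2. Pmvk and Acss2 were called lower in both fits without array 3, and Mvk and Elovl6 higher without array 1. Insig2 and Sqle were called in both fits with all 3 arrays. With 1 array left out, Sqle was called only without array 1, in both fits. Insig2 was called lower with loess whichever array was left out, but never with the surface removed as well.

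**Figure D2:**
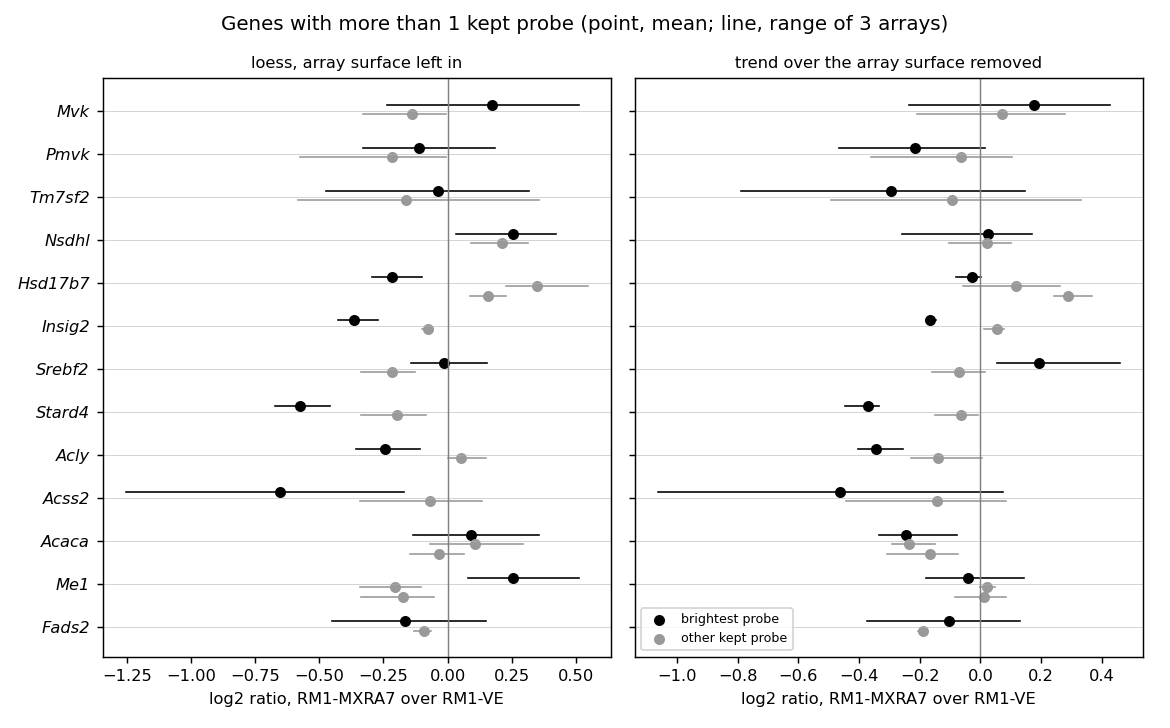
Log2 ratio (x axis) of every kept probe of the 13 genes with more than 1 (y axis), with loess alone on the left and the surface trend removed on the right. Points are means of 3 arrays and lines their range, black for the brightest probe, which stands for the gene, and grey for the others. The widest gap is that of Acss2, at 0.58 with loess and 0.32 with the surface removed.

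Probes of 1 gene did not always give the same sign. Of the 13 members with several kept probes, 8 had all probes on 1 side of 0 with loess and 9 with the surface removed. The median gap between the highest and lowest probe of a gene was 0.29 and 0.20 on the log2 ratio scale, as large as most of the differences between the lines. The brightest probe named Acaca carries a position on chromosome 12 in the array files, whereas the gene's other probes lie on chromosome 11. The kept probes on chromosome 11 lay at -0.24 and -0.16 with the surface removed, beside -0.25 for the brightest.

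The ratios of the cholesterol enzymes moved together between arrays. With the surface removed, all 16 had their lowest ratio on array 1, against 36.3% of all genes, and their median ratios were -0.24, 0.07 and 0.03 on arrays 1, 2 and 3. The corresponding medians of all genes were 0.0004, 0.004 and 0.0008. Of all 33 members 28 had their lowest ratio on array 1. The median SD between arrays was 0.153 for the members and 0.094 for all genes.

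For all 16 cholesterol enzymes and 30 of the 33 members, the level differed more between arrays 1 and 3, as the mean of both lines, than the mean ratio differed from 0 in either fit. The exceptions were Insig2, Srebf1 and Elovl5. Levels are given per channel on the log2 scale after loess and Aquantile normalisation, and each is compared only with the same probe on another array. Idi1 stood at 13.69, 12.69 and 11.12 in RM1-MXRA7 and at 13.93, 12.53 and 10.93 in RM1-VE on arrays 1, 2 and 3. Array 1 was highest and array 3 lowest in both lines, and the mean of the lines differed 6.88-fold between them. Cyp51 stood at 9.59, 9.07 and 7.58 in RM1-MXRA7 and at 9.95, 9.18 and 7.63 in RM1-VE, a 4.49-fold difference. Mvd differed 4.27-fold, Hmgcs1 4.06-fold, Sqle 3.45-fold and Fdps 3.24-fold, with array 1 highest in both lines for each. Between the lines on a single array, the cholesterol enzymes differed by at most 0.53 on the log2 scale with loess and by at most 0.79, for Tm7sf2 on array 1, with the surface removed.

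**Figure D3:**
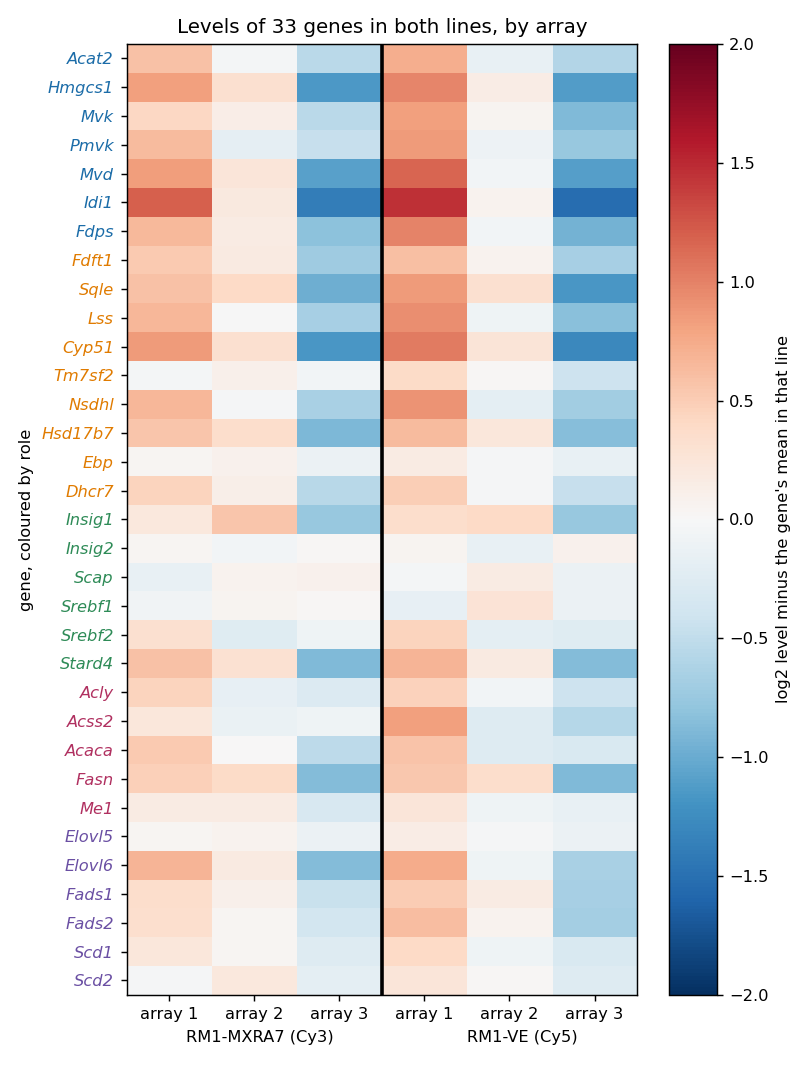
Log2 level of each of the 33 genes (y axis, names coloured by role) on the 3 arrays in RM1-MXRA7 and in RM1-VE (x axis), as the difference from the gene's mean in that line. Red is above and blue below that mean. Array 3 is the lowest in both lines for 28 genes, with the range of Idi1 the widest, from 13.93 to 10.93 in RM1-VE.

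Arrays 1 and 3 were set against each other after the levels were seen, and with 1 value per line and array the difference has no test. All 7 mevalonate genes were at least 2-fold higher on array 1, as the mean of both lines, with a median of 1.69. Of the 9 genes from squalene to cholesterol 6 were, with a median of 1.45, and Dhcr7, Tm7sf2 and Ebp were not, at 0.98, 0.40 and 0.23. In the control group Stard4 (1.50) and Insig1 (1.04) were, Srebf2 lay at 0.54 on the probe used and at -0.66 on its other kept probe, and Scap (-0.07), Srebf1 (-0.07) and Insig2 (-0.01) lay near 0. Fasn (1.38) was at least 2-fold higher, and Acaca (0.96), Acss2 (0.85), Acly (0.80) and Me1 (0.44) less so. Elovl6 (1.47) was, whereas Fads2 (0.99), Fads1 (0.99), Scd1 (0.60), Scd2 (0.34) and Elovl5 (0.21) were not.

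In all, 17 of the 33 genes (51.5%) were at least 2-fold higher on array 1 than on array 3, against 86 of all genes (0.511%), so the 17 made up 19.8% of those 86. No member was among the 65 genes at least 2-fold higher on array 3. In both lines 30 of the 33 were higher on array 1, against 35.1% of all genes. Agilent's processed signals gave 21 members (63.6%) and 0.897% of genes. Of the 17 genes, 5 had other kept probes, and all 6 of these were higher on array 1, by 0.26 to 1.35, with 2 of them at least 2-fold. Of the other kept probes of the remaining members, that of Srebf2 had the opposite sign to the probe used for its gene, as did that of Insig2 (0.15 against -0.01).

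**Figure D4:**
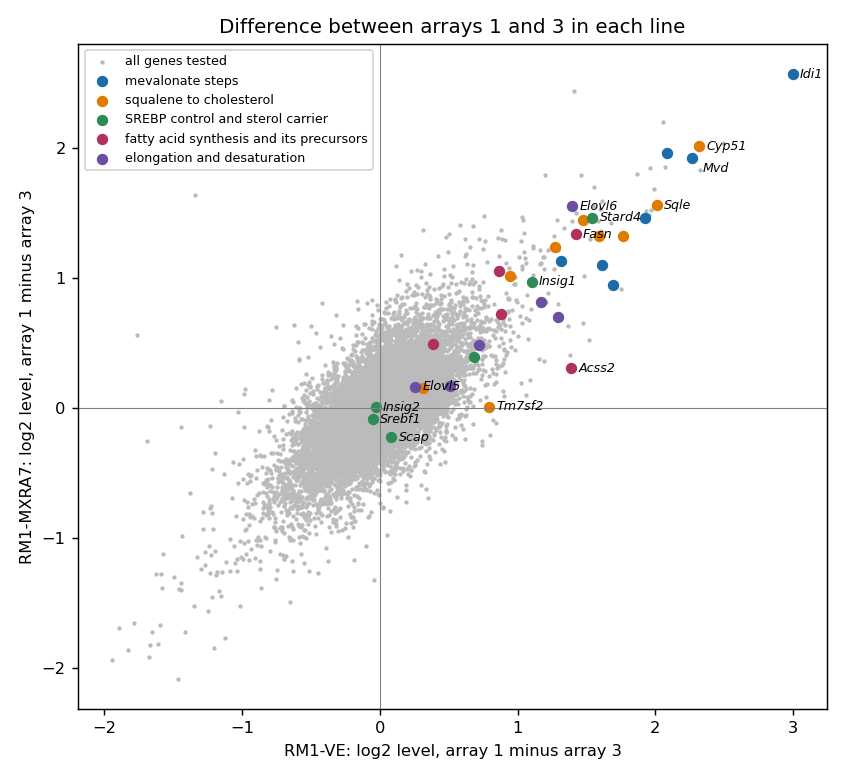
Difference in log2 level between arrays 1 and 3 in RM1-VE (x axis) and RM1-MXRA7 (y axis) for all genes tested (grey) and the 33 members (coloured by role). Most cholesterol enzymes lie at the upper right, with Idi1 at 3.00 and 2.57. Tm7sf2 (0.80 and 0.007) and Ebp (0.31 and 0.15) do not, and Insig2, Srebf1 and Scap lie near 0.

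Both RNAs of an array share its spots and its hybridisation, so the lines are not independent readings of the array difference. Whether the pairs of cultures, the RNA or the hybridisation differed was not tested. In the lists of neighbouring lipid genes the median differences between arrays 1 and 3 were smaller. The median difference was near 0 for 12 genes of the isoprenoid branches and 0.006 for 11 genes of SREBP processing and turnover. It was -0.19 for 15 genes of sterol transport, storage and efflux, -0.16 for 15 of fatty acid oxidation and 0.18 for 22 other genes of fatty acid and glycerolipid synthesis. Of these 75 genes 1 was at least 2-fold higher on array 1, Acsl3, which activates fatty acids, and 1 on array 3. The latter was Abcg1, a cholesterol efflux transporter, with differences of -1.81 in RM1-MXRA7 and -1.61 in RM1-VE on the log2 scale, or 3.28-fold in the mean. Abca1, another efflux transporter, had differences of -0.89 and -0.52. These genes were named after their values were seen. Of the 14 measured cell type markers 1, Cd68, a macrophage gene, was at least 2-fold different, 3.35-fold higher on array 3 (differences of -1.82 and -1.67), and its part in the pattern was not tested. With bulk RNA, fewer cells expressing a gene and less RNA per cell cannot be told apart.

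The stretch before the start of transcription is shown for Hmgcs1 and Idi1, whose levels differed widely between arrays, and for Fasn, Acly and Elovl5, which fell in RM1-MXRA7. Each run is the 250 bases before the start, 5′ to 3′ on the gene's strand, from RefSeq on GRCm38.p6. Capitals mark letter matches on either strand to the sterol regulatory element CACCCCAC, the E-box CACGTG, the NF-Y box CCAAT (reverse complement ATTGG) and the Sp1 box GGGCGG (reverse complement CCGCCC).
Hmgcs1: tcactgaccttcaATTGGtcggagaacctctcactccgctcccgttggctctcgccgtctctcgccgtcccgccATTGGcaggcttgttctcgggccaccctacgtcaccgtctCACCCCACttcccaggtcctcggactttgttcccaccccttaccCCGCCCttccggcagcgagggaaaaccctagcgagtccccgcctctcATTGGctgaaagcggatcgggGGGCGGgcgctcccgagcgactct
Idi1: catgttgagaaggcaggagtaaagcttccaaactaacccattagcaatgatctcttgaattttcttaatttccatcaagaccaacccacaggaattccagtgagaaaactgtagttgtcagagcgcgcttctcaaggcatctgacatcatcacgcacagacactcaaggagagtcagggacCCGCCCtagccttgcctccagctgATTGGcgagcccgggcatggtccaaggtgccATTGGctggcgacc
Fasn: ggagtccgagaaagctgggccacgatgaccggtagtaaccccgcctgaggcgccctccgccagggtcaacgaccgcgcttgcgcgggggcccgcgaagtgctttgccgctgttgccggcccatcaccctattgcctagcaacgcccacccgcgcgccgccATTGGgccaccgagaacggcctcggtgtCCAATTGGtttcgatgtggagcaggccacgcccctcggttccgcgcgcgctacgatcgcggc
Acly: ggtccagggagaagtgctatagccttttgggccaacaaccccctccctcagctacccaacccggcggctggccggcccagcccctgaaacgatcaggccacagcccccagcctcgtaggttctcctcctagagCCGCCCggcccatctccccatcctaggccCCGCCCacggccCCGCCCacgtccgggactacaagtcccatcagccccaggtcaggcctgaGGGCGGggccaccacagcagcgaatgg
Elovl5: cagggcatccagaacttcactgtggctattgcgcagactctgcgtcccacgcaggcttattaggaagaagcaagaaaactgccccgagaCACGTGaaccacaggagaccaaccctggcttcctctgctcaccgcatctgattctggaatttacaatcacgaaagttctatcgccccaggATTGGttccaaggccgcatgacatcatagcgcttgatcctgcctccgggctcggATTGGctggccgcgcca
These runs lie at chr13:119690101-119690350, plus strand (Hmgcs1), chr13:8885356-8885605, plus strand (Idi1), chr11:120824548-120824797, minus strand (Fasn), chr11:100528001-100528250, minus strand (Acly) and chr9:77917115-77917364, plus strand (Elovl5).

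The run of Hmgcs1 holds the sterol element at position -136 from the start, between NF-Y boxes at -176 and -45 and near an Sp1 box at -92. Idi1 holds NF-Y boxes at -45 and -14 and an Sp1 box at -69. Fasn holds NF-Y boxes at -90, -62 and -59, the last pair overlapping on opposite strands. Acly holds 4 Sp1 boxes before the start and an NF-Y box only after it, at 38. Elovl5 holds an E-box at -161 and NF-Y boxes at -71 and -17. NF-Y and Sp1 are general promoter factors that are known to act with SREBP.

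Windows from 250 bases before to 50 after the start were given for 26 of the 33 genes, with more than 1 start for some. The NF-Y box was in a window of 21 of the 26 (80.8%), against 41.1% of 27025 genes, and the Sp1 box likewise in 21 (80.8%), against 38.2%. The E-box was in 5 (19.2%, against 8.09%), namely Dhcr7, Elovl5, Hsd17b7, Insig1 and Scap. The 8 letters of the sterol element were in 2 (7.69%, against 3.30%), Acat2 and Hmgcs1, and a longer form of 10 letters, with 1 of them free, in 0 (0.270% of all genes). Windows were not matched for base composition, and a match is a description of letters. Scd1, Scd2, Sqle, Fads1, Fdft1, Stard4 and Fdps were not among the windows.

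Of the genes next to the pathway, some were called higher and some lower in both fits. Among all genes tested 9.58% were called higher and 10.9% lower by the same rule. The counts per list below are therefore not read as a property of these lists. Nr1h3, which encodes the liver X receptor alpha, a sensor of oxidised cholesterol that induces Srebf1 and efflux genes, had loess ratios of -1.63, -1.89 and -1.28. It was far below 0 on all 3 arrays. The mean was -1.60 ± 0.31 (SD, n = 3; limma adjusted p = 4.8e-09), or -1.54 with the surface removed, -2.60 in Agilent's processed signals and -1.31 with loess on a dimmer probe. Gramd1a, a carrier of sterol from the plasma membrane, rose by 0.21 with loess and 0.35 with the surface removed, and these were the only changes among 15 genes of sterol transport, storage and efflux. Of 12 genes of the isoprenoid branches, which use farnesyl diphosphate for other products, 0 rose and 0 fell in both fits, where loess alone called 1 lower, Fntb, a subunit of the farnesyltransferase, at -0.22.

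**Figure D5:**
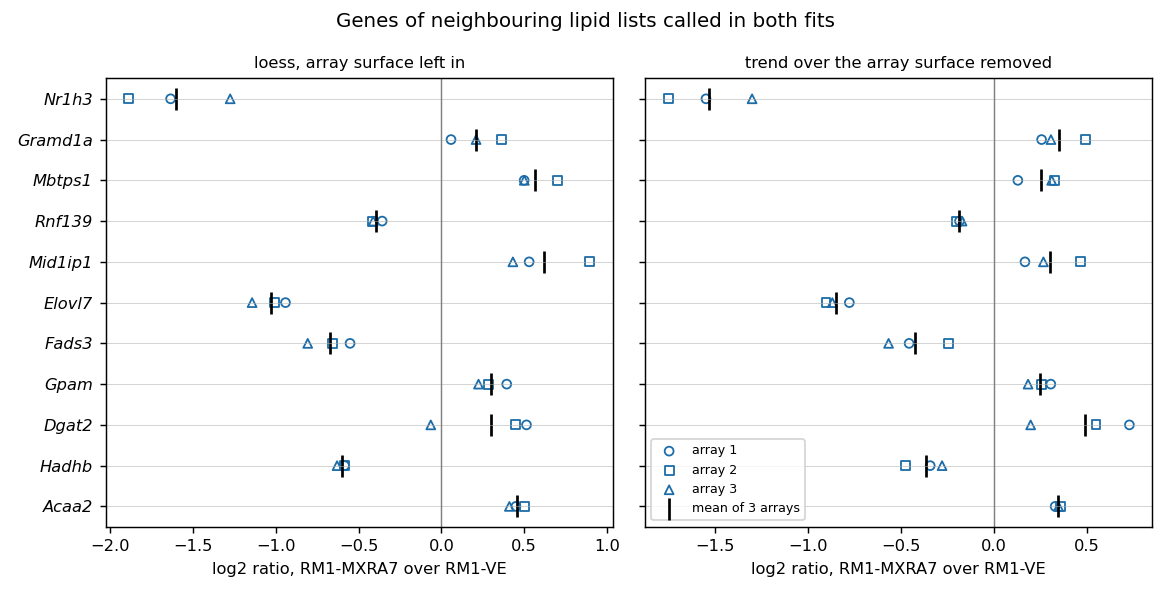
Log2 ratio (x axis) of 11 genes from lists next to the pathway that were called in both fits (y axis), at most 4 per list, with loess alone on the left and the surface trend removed on the right. Symbols are arrays and bars means. Nr1h3 lies lowest, at -1.60 and -1.54.

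Of 11 measured genes of SREBP processing and turnover, 2 rose and 1 fell in both fits, beside 9.58% and 10.9% of all genes. Mbtps1, the Golgi protease that makes the first cut in SREBP, rose by 0.57 with loess and 0.25 with the surface removed, whereas a dim probe lay at -0.18 and 0.002. Mid1ip1, which activates acetyl-CoA carboxylase, rose by 0.62 and 0.30. Rnf139, a ubiquitin ligase of the endoplasmic reticulum, had ratios of -0.40 and -0.19. Of 22 other genes of fatty acid and glycerolipid synthesis, 4 rose and 2 fell. Elovl7, an elongase of long saturated chains, had ratios of -0.94, -1.01 and -1.14 on the arrays with loess, low on all 3, with a mean of -1.03 (limma adjusted p = 6.5e-08) and -0.85 with the surface removed. Fads3, of the desaturase family, lay at -0.67 and -0.42, with another probe at -0.45 and -0.34. Dgat2, which completes triglycerides, rose by 0.30 and 0.49. Gpam, the acyltransferase that opens glycerolipid synthesis, was called higher at 0.30 and 0.25, and lay at 0.69 in Agilent's processed signals. Its probe was dim, at a mean log2 intensity of 6.77, and well above background on 3 arrays in RM1-MXRA7 but 2 in RM1-VE. It thus passed the filter only through the line where it was higher. The other 2 that rose, named after their values were seen, were Acsl1, which activates long fatty acids, at 0.22 and 0.22, and Mcat, of mitochondrial fatty acid synthesis, at 0.27 and 0.30. Of 15 genes of fatty acid oxidation 1 rose and 1 fell, namely Acaa2, a mitochondrial thiolase, at 0.45 and 0.34, and Hadhb, a subunit of the trifunctional protein, at -0.60 and -0.37.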

How the data were processed

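Both lines' total RNA was hybridised to 3 Agilent 2-colour arrays of 44397 spots, 1377 of them controls. Per the file headers, the authors deposited Feature Extraction output, given as version 10.7.1.1 in the submitters' processing notes, with spot and background intensity per channel and a processed intensity detrended and dye-normalized by the software. Its deposited value table gives a linear ratio, which equalled green over red processed signal, with column medians of 1.02, 1.03 and 0.972. The genome build of the probe positions is mm9.

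Background was corrected by normexp with an offset of 50, then each array was loess-normalized without its control spots (limma 3.58.1, R 4.3.3). Flagged spots were left out and spots of a probe averaged. Of all probes, 21805 had signal well above background in 1 channel or both on every array, and the brightest of these stood for its gene (16826 genes). The mean log2 ratio was set against 0 by limma's lmFit and eBayes and p-values adjusted by Benjamini-Hochberg over all genes. The fit has 2 residual and 13.8 prior degrees of freedom, so the p-values draw on the spread of all genes. The other fit removed a surface of degree 4 polynomials over row and column, alone and times log2 intensity, from each array. A linear term in log2 intensity was fitted and removed with it. The limma fit and the surface removal were tried on simulated log ratios with the same surface on every array. Background correction, loess, the filter and the choice of probes were not simulated.

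RefSeq (GRCm38.p6) gave current symbols for 27508 probes by accession, while the other 11921 are named as in the file. The members and lists were chosen with earlier results of these data known. Named genes are all 33 members, Mxra7, and from each other list up to 4 genes with the smallest adjusted p among those called in both fits. Arrays are numbered pairs, so the ratio holds the pairing. Over 16816 genes the deviations of same-numbered channels from their line's mean correlated at 0.72, 0.68 and 0.69 for arrays 1, 2 and 3, against at most -0.21 for other numbers. Both channels of an array share its spots, and deviations from a line's mean cancel out over the arrays. The correlations therefore do not test whether the cultures were paired. Precision is limited by the number of arrays, 3. Alternatives covered background correction, normalization, filters, probe collapse, the deposited ratios, single channels and each array left out.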

Additional observations from a re-analysis of the deposited data

How the results depend on the processing

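With median centring in place of loess the median log2 ratio went from -0.01 to -0.29 over all genes and from -0.07 to -0.40 over the 33 members, of which 0 were called higher and 24 lower (5.68% and 58.7% of all genes), against 6 and 10 with loess. The count called higher was 1 after the surface was removed, and 0 in Agilent's processed signals, in the deposited ratios and in single channels with no replicate block. The count called lower was 4, 4 and 2 in these last 3 settings, and with the replicate block the single channels gave 6 and 10. Of all genes 11.4% and 12.9% were called in the deposited ratios, 7.22% and 6.58% with no replicate block and 23.9% and 23.5% with it. Without 1 replicate the loess counts ran from 1 to 8 higher and from 5 to 11 lower, and with the surface removed from 0 to 7 and from 2 to 8. Of all genes 15% to 23.1% and 15.3% to 20.9% were then called with loess, and 4.72% to 17% and 5.82% to 17% with the surface removed. In both fits they ran from 0 to 3 higher and from 1 to 5 lower (3.64% to 9.84% and 4.67% to 10.9% of all genes), where Stard4 alone was lower without replicate 2. With median centring Idi1 (-0.37), Ebp (-0.27), Scap (-0.44) and Acaca (-0.30) were called lower, and Sqle (-0.22), Dhcr7 (-0.0175) and Me1 (-0.14) lay below 0. With the surface removed Hmgcs1 lay at 0.0273, Ebp at -0.18, Acaca at -0.25 and Me1 at -0.0407. Agilent's processed signals and the deposited ratios gave 0.0050 for Hsd17b7, -0.16 for Ebp and -0.0473 for Me1, and the mean of a gene's probes gave 0.10 for Hsd17b7 and -0.0408 for Me1. With the surface removed and without replicate 1, Hmgcs1 lay at 0.0785, Fdps at 0.34, Ebp at -0.11, Srebf2 at 0.26, Acaca at -0.21 and Scd2 at 0.27. Without replicate 2 Nsdhl lay at -0.0455, Ebp at -0.18, Acaca at -0.33 and Me1 at -0.13. Without replicate 3 Hmgcs1 lay at 0.0133, Nsdhl at -0.0448, Ebp at -0.26 and Me1 at -0.0195. Over all single genes and settings, 353 values kept direction and call, 91 lost a call, 25 gained 1, 59 changed sign without a call and 33 changed sign with 1. The surface, the leave-1-out fits with it removed and the comparison of arrays 1 and 3 were chosen after seeing the data, and the causes of these differences were not tested. On each of the 3 arrays the probes used for all 33 members exceeded background clearly in both lines, and 0 of the 52 probes were saturated.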
